A study of Sus scrofa with 2 samples.

Results

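Slow spots of pig psoas major, a loin muscle, were compared by how much of their RNA came from mitochondrial genes. A Visium spot captures polyadenylated RNA from a small patch of a muscle section, and molecules are told apart by short tags (UMIs, unique molecular identifiers). Spots were chosen by measured values: they counted as slow when they held at least 10 UMIs of the myosin heavy chain genes MYH7, MYH2 and MYH4 together and when MYH7, the slow type I myosin, made up 0.85 to under 0.95 of them. This rule chose 739 of 5426 spots, 318 of 2487 in section 1 and 421 of 2939 in section 2. In each spot the mitochondrial share was the percentage of all UMIs from the 13 protein-coding genes of the mitochondrial genome, and the slow spots of each section were divided at equal numbers into an upper, a middle and a lower tertile of that share. The upper tertile held 106 spots in section 1 and 141 in section 2, and the lower tertile 106 and 140. Both sections came from female Landrace pigs, one section from each of 2 animals, mounted on areas D1 and C1 of the same slide. There was no treatment, and no age is given in the labels. The series therefore has 1 group, the replicate is the section, and each comparison was made between spots of the same section. A spot can hold parts of several fibres with the vessels and connective tissue between them, and a change in the mix of cells and a change in RNA per cell cannot be told apart in it.

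Slow fibres contract for long periods on energy from oxidative phosphorylation in mitochondria. The respiratory chain is built from both the mitochondrial and the nuclear genome: the mitochondrial genome encodes core subunits of complexes I, III, IV and V, while the other subunits, all of complex II, and the proteins that import, assemble and copy mitochondria come from nuclear genes. Mitochondrial RNA and nuclear RNA for the same complexes are therefore made by different polymerases, and in muscle both are abundant in oxidative fibres.

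The fibre markers that the rule did not use went with the label. TNNT1, TNNI1, MYL2, MYL3, TPM3 and ATP2A2, all known from slow fibres, were 4.85-fold to 11.7-fold higher in CPM (counts per 1000000 UMIs outside the 13 mitochondrial genes) in slow spots than in fast spots of the same section, fast meaning a MYH7 share of 0.5 or less (482 and 822 spots). The fast-fibre genes TNNT3, TNNI2, MYLPF and ATP2A1 stood at 0.279 to 0.331 of their level in fast spots. The whole sections held 3633249 and 5382677 UMIs, of which the slow spots held 26.3% and 29.5%. Of the slow spots, 36 barcodes occurred in both sections, as did 2104 of all spots, since the capture areas use one set of barcodes.

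The mitochondrial share of slow spots had a median of 19.8% in section 1 and 19.1% in section 2, against 12.6% and 12.1% over all spots. By the rule, the tertiles differ in it: these genes made up 22.0% and 21.1% of the summed UMIs of the upper tertiles, against 17.2% and 16.8% in the lower tertiles. The lowest share in an upper tertile was 20.66% in section 1, where the highest in the middle tertile was also 20.66%. In section 2 both values were 19.71%. The lowest share in the middle tertile of section 1 was 18.68%, and the highest in its lower tertile was 18.66%, and these were 18.27% and 18.26% in section 2. The tertiles are thus ranges of one continuous measure without a gap. Depth moved with them: a spot held a median of 2622 and 3283 UMIs outside the 13 genes in the upper tertiles, against 1782.5 and 2794.5 in the lower tertiles. The MYH7 share hardly moved, with medians of 0.912 and 0.911 in the upper tertiles, against 0.908 and 0.90 in the lower tertiles. Over slow spots, Spearman's rho of the mitochondrial share was 0.298 in section 1 (318 spots) and 0.228 in section 2 (421 spots) with the UMIs outside the 13 genes, and 0.0714 and 0.138 with the MYH7 share. Both measures of each pair come from the same library, so these are descriptions.

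**Figure D1:**
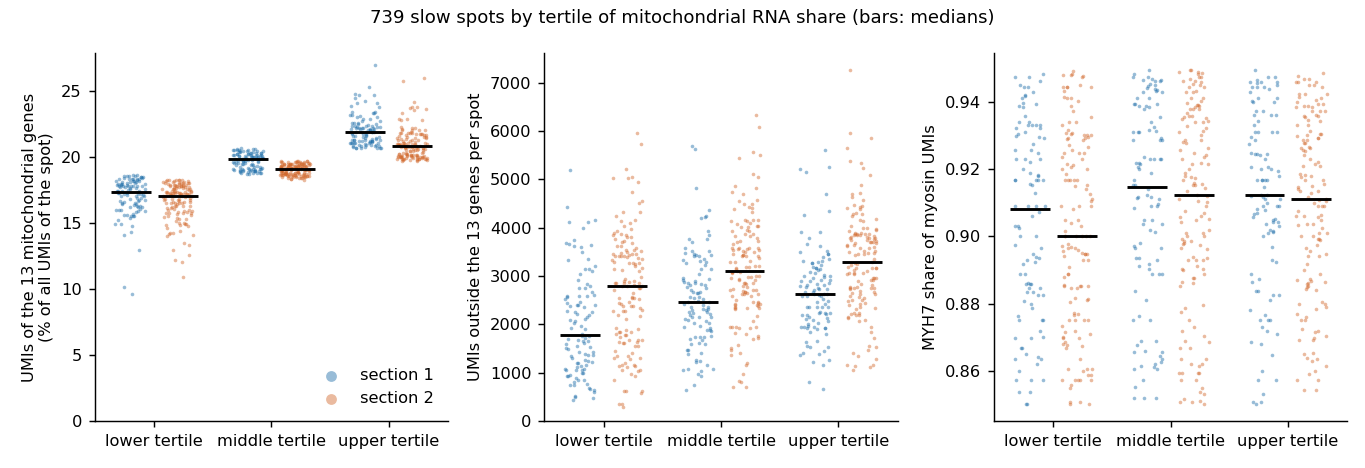
Each point is one of the 739 slow spots, with section 1 in blue and section 2 in orange and the tertiles of mitochondrial share from lower to upper on the x axis; the y axes give the mitochondrial share in percent of UMIs, the UMIs outside the 13 genes and the MYH7 share of myosin UMIs, and black bars are medians. The median depth is 2622 and 3283 UMIs in the upper tertiles, against 1782.5 and 2794.5 in the lower tertiles, while the median MYH7 share lies between 0.90 and 0.915 in each tertile.

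Among the 13 genes, which made the division, the rise was shared. The 11 genes with at least 80 UMIs in each lower tertile stood 1.21-fold to 1.54-fold higher per UMI in the upper than in the lower tertiles, and no test is given because they define the groups. COX3 and COX2, encoding core subunits of cytochrome c oxidase, were the most abundant: COX3 made up 6.36% and 5.99% of all UMIs in the upper tertiles, against 5.17% and 4.96% in the lower tertiles. COX1, the catalytic subunit of the same enzyme, took 11.08% and 11.42% of the UMIs of the 13 genes in the upper tertiles, against 10.27% and 10.64% in the lower tertiles. COX3 took 28.86% and 28.44% of them in the upper tertiles, against 29.96% and 29.47% in the lower tertiles. ATP8 had only 14 to 29 UMIs and ND6 only 2 to 16 in the upper and lower tertiles, too few for a level. MYH7 itself made up 91.1% and 90.9% of the myosin UMIs in the upper tertiles, against 90.7% and 90.4% in the lower tertiles.

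The question asked of the other genes was which of them differ between slow spots rich and poor in mitochondrial RNA. Few did: of 3053 genes tested with edgeR, 28 passed (0.917% of the genes tested, adjusted p under 0.05), 11 of them higher (0.36%) and 17 lower (0.557%) in the upper tertile. By p the higher genes were led by ENSSSCG00000018063 and ENSSSCG00000018061, which have no symbol. Their identifiers adjoin those of the 13 genes, so their rise may be part of the division itself. The higher genes also included CKMT2, SLC25A3, ATP5PF, ATP2A2, MYL3, CMYA5 and SAR1B. The lower genes included the fast troponins TNNT3 and TNNI2, the glycolytic enzyme GAPDH, RPL10 and RPL35 of the ribosome, HBB and MYL6. The 28 genes had the same sign in both sections, beside 1682 of 3053 over all genes tested. For 22 of them the middle tertile lay between the others in both, beside 396 of 3053. The upper and lower sums did not overlap for 28 of 28, where this held for 37.5% of all genes tested. The 28 were called from these same sums, so these counts describe them and are no separate evidence. Most changes were small: 11 of the 28 exceeded 1.5-fold and 6 exceeded 2-fold. Changes are relative to the other non-mitochondrial RNA, with a median log2 fold change of -0.00108 over all genes tested. Scaled by the number of spots instead, the median moved to 0.34 and 98.3% of 345 calls were higher, and with the 13 genes counted in the library size 10.3% of 58 calls were higher, against 39.3% of the 28. When the tertiles were taken within 5 bins of depth, 12 genes were called, 11 of them among the 28.

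Of the genes of mitochondrial energy transfer, CKMT2 changed most clearly. It encodes the sarcomeric mitochondrial creatine kinase, which passes phosphate from mitochondrial ATP to creatine (ENSSSCG00000014128, chromosome 2, 89796470 to 89830293 of Sscrofa11.1). CKMT2 had 2244 and 2293 CPM in the upper tertiles of sections 1 and 2, against 1714 and 1678 CPM in the lower tertiles, a log2 fold change of 0.42 ± 0.07 (SE, edgeR adjusted p = 4.4e-06). It was called under each of the 16 other settings tried, with log2 fold changes of 0.25 to 0.76. SLC25A3, the carrier that brings phosphate into mitochondria (chromosome 5, 85284405 to 85292336), had 1224 and 1266 CPM in the upper tertiles, against 1052 and 950 CPM in the lower tertiles, a log2 fold change of 0.33 ± 0.09 (SE, edgeR adjusted p = 0.030). ATP5PF, a stalk subunit of ATP synthase, had 1192 and 1046 CPM in the upper tertiles, against 817 and 908 CPM in the lower tertiles, a log2 fold change of 0.34 ± 0.10 (SE, edgeR adjusted p = 0.036). Its change was 0.54 in section 1 and 0.20 in section 2. Within bins of depth neither was called: the log2 fold change of SLC25A3 was 0.22 (edgeR adjusted p = 0.53), and that of ATP5PF was 0.35, as large as before (edgeR adjusted p = 0.10).

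Of the contractile and calcium genes, ATP2A2 and MYL3 were higher. ATP2A2 encodes the calcium pump of the slow fibre's sarcoplasmic reticulum (chromosome 14, 31674659 to 31744981). It had 3256 and 3266 CPM in the upper tertiles, against 2624 and 2625 CPM in the lower tertiles, a log2 fold change of 0.31 ± 0.07 (SE, edgeR adjusted p = 0.00045), and the sections lay close together. MYL3, an essential light chain of slow myosin (chromosome 13, 29730271 to 29735616), had 3777 and 3072 CPM in the upper tertiles, against 2948 and 2720 CPM in the lower tertiles, a log2 fold change of 0.26 ± 0.06 (SE, edgeR adjusted p = 0.010). MYL3 was not called within bins of the MYH7 share (0.18, adjusted p = 0.30) or without the spots richest in markers of other cells (0.15, adjusted p = 0.66), and was called in 9 of 16 other settings. CMYA5, a large muscle protein that binds desmin, had 1788 and 1665 CPM in the upper tertiles, against 1376 and 1424 CPM in the lower tertiles, a log2 fold change of 0.29 ± 0.08 (SE, edgeR adjusted p = 0.035). CMYA5 was called in 8 of 16 other settings, and not within bins of depth (0.21, adjusted p = 0.33) or without the spots richest in markers of other cells (0.16, adjusted p = 0.83). SAR1B, a small GTPase that forms vesicles at the endoplasmic reticulum, had the largest fold change of the higher genes with a symbol and few UMIs. It had 35 and 76 UMIs in the upper tertiles, against 15 and 25 UMIs in the lower tertiles, with a log2 fold change of 1.12 ± 0.28 (SE, edgeR adjusted p = 0.010). Within bins of depth the log2 fold change of SAR1B was 1.01 and did not pass (edgeR adjusted p = 0.12).

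Of the 11 higher genes, 4 have no symbol in the files or in the reference table. The most abundant, ENSSSCG00000018063, had 20472 and 18925 CPM in the upper tertiles, against 11511 and 12367 CPM in the lower tertiles, a log2 fold change of 0.72 ± 0.05 (SE, edgeR adjusted p = 2.2e-52). ENSSSCG00000018061 had 8872 and 8262 CPM in the upper tertiles, against 5676 and 5700 CPM in the lower tertiles, a log2 fold change of 0.59 ± 0.05 (SE, edgeR adjusted p = 4.2e-26). What these RNAs are, and whether they come from the mitochondrial genome, could not be told from the sources used here. Their identifiers stand just before that of ND1 (ENSSSCG00000018065), which helped to make the division, so nothing is read from their calls. Both RNAs were called under each of the 16 other settings.

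**Figure D2:**
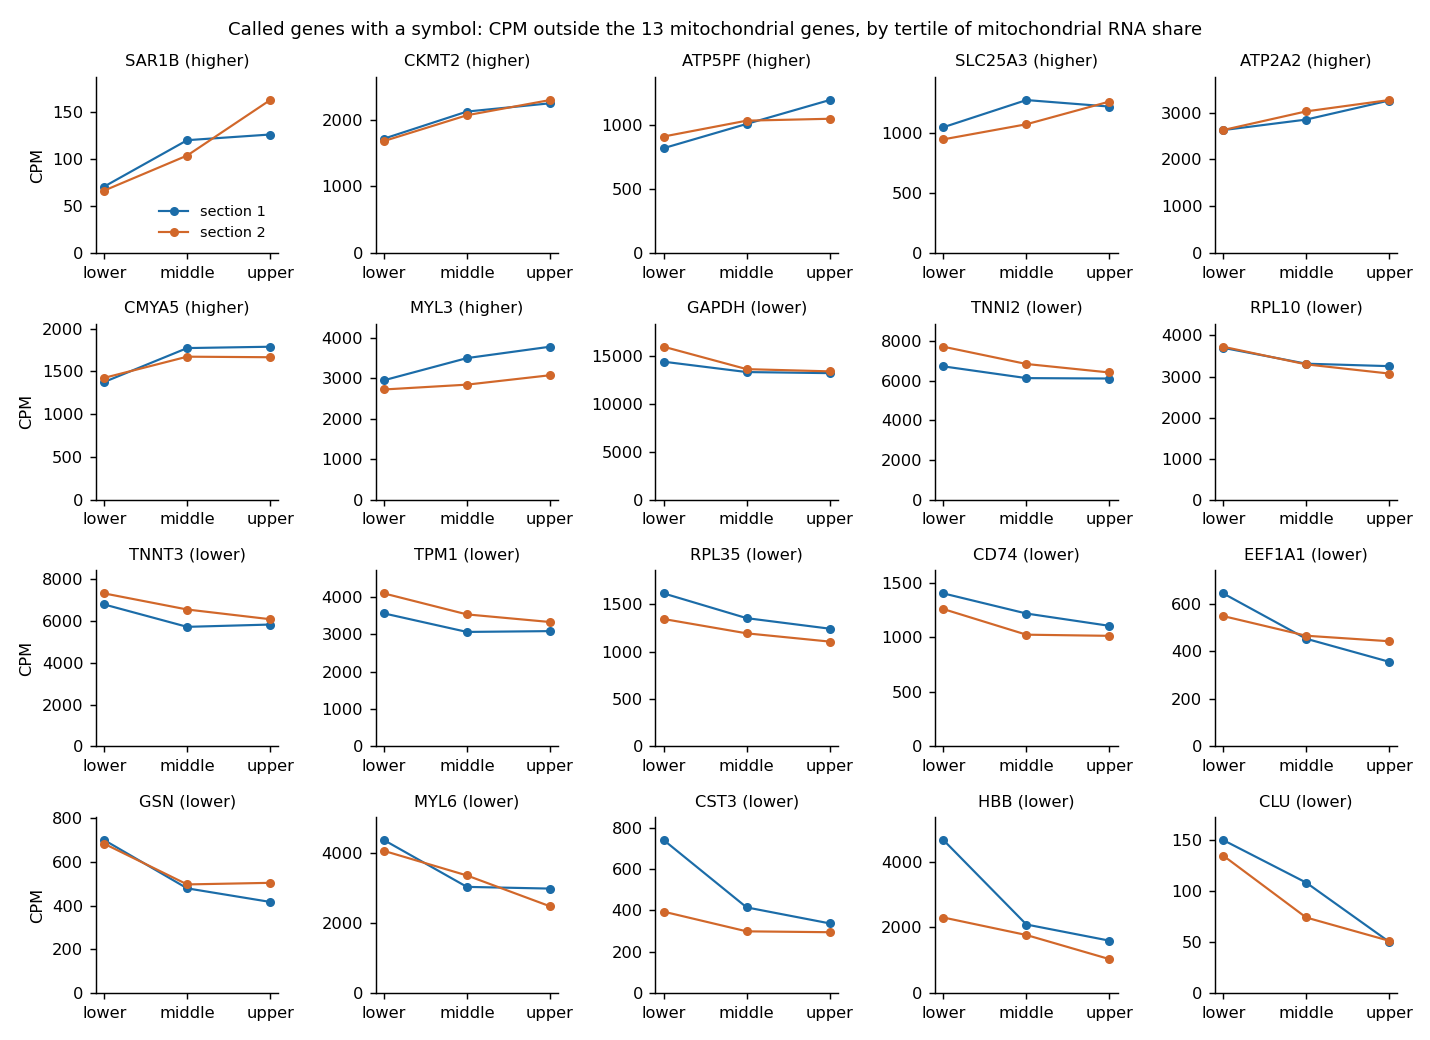
Each panel is one of the 20 called genes with a symbol, with CPM outside the 13 mitochondrial genes on the y axis, starting at 0, and the lower, middle and upper tertile of mitochondrial share on the x axis; lines are section 1 (blue) and section 2 (orange), and the direction of the call stands in the title. CKMT2 and ATP2A2 nearly coincide in both sections, while HBB and CST3 are high in the lower tertile of section 1 most of all.

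Among the lower genes were TNNT3, TNNI2 and TPM1 of fast contraction and 1 glycolytic enzyme, GAPDH, with small changes. TNNT3, the fast troponin T (chromosome 2, 1297826 to 1316865), had 5834 and 6091 CPM in the upper tertiles, against 6798 and 7328 CPM in the lower tertiles, a log2 fold change of -0.25 ± 0.05 (SE, edgeR adjusted p = 0.00095). TNNI2, the fast troponin I and a neighbour of TNNT3 on chromosome 2, had 6122 and 6428 CPM in the upper tertiles, against 6737 and 7730 CPM in the lower tertiles, a log2 fold change of -0.21 ± 0.05 (SE, edgeR adjusted p = 0.012). TPM1, a tropomyosin of fast fibres, stood at a log2 fold change of -0.26 ± 0.06 (SE, edgeR adjusted p = 0.0057). GAPDH, a glycolytic enzyme, had 13209 and 13396 CPM in the upper tertiles, against 14403 and 15968 CPM in the lower tertiles, a log2 fold change of -0.19 ± 0.05 (SE, edgeR adjusted p = 0.0053). Within bins of depth these 4 genes had log2 fold changes of -0.12, -0.12, -0.12 and -0.06 and none was called. Within bins of the MYH7 share TNNT3, TNNI2 and TPM1 had -0.18, -0.15 and -0.20 and were not called (edgeR adjusted p = 0.13, 0.35 and 0.15), while GAPDH was, with -0.18 (adjusted p = 0.045). Scaled by the number of spots their log2 fold changes were positive, from 0.08 to 0.15. The ribosomal proteins RPL10 and RPL35 were lower by 0.24 and 0.32 on the log2 scale (edgeR adjusted p = 0.020 each). Neither was called within bins of depth, at -0.15 and -0.22 (edgeR adjusted p = 0.44 and 0.46). Ribosomal protein genes have many near-identical copies in the genome, so their counts are uncertain.

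MYL6 was lower by a wider margin. It encodes a light chain of the myosins of smooth muscle and non-muscle cells (chromosome 5, 21559226 to 21562418). MYL6 had 2984 and 2479 CPM in the upper tertiles, against 4371 and 4062 CPM in the lower tertiles, a log2 fold change of -0.64 ± 0.06 (SE, edgeR adjusted p = 1.6e-21). It was called under each of the 16 other settings, with log2 fold changes of -0.72 to -0.29. Its UMIs were spread over the spots: 100 of 106 and 128 of 141 spots of the upper tertiles held one, against 93 of 106 and 126 of 140 of the lower tertiles. An RNA without a symbol, ENSSSCG00000050649, was lower too, with 736 and 645 CPM in the upper tertiles, against 1056 and 1080 CPM in the lower tertiles (log2 fold change -0.65 ± 0.10, SE, edgeR adjusted p = 4.7e-08).

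Other lower genes were CST3, CLU, GSN, CD74 and EEF1A1, of which GSN and CD74 stand in the list of markers of other cells. CST3, cystatin C, a secreted protease inhibitor, had 337 and 295 CPM in the upper tertiles, against 742 and 394 CPM in the lower tertiles, a log2 fold change of -0.75 ± 0.14 (SE, edgeR adjusted p = 2.1e-05). CLU, the secreted chaperone clusterin, had 14 and 24 UMIs in the upper tertiles, against 32 and 51 UMIs in the lower tertiles, with a log2 fold change of -1.46 ± 0.30 (SE, edgeR adjusted p = 0.00045). GSN, the actin-severing protein gelsolin, had 416 and 504 CPM in the upper tertiles, against 699 and 683 CPM in the lower tertiles, a log2 fold change of -0.55 ± 0.12 (SE, edgeR adjusted p = 0.00095). CD74, the chaperone of class II antigen presentation, and EEF1A1, the elongation factor of most non-muscle cells, were lower by 0.33 and 0.52 on the log2 scale (edgeR adjusted p = 0.029 and 0.0091). Within bins of depth CST3 had -0.40, EEF1A1 -0.48, GSN -0.34 and CD74 -0.29, and none passed (edgeR adjusted p = 0.44, 0.090, 0.41 and 0.24). CLU passed there, with -1.36 (edgeR adjusted p = 0.026). Of the 35 tested markers of other cells 3 were called, each lower (HBB, GSN and CD74), beside 17 of 3053 genes tested called lower (0.557%). Their log2 fold changes had a median of -0.33, 30 were negative, and 21 had the same sign in both sections. All 75 markers summed to 0.628% and 0.598% of non-mitochondrial UMIs in the upper tertiles, against 1.08% and 0.814% in the lower tertiles. Without HBB, CD74 and GSN the sums were 0.321% and 0.340% in the upper tertiles, against 0.399% and 0.391% in the lower tertiles. The defining markers PLIN1, LEP, CD68, LYZ, POSTN, PAX7 and SLC4A1 had no UMI in these sums and 13 of the 75 were at 0. By type, the endothelial markers summed to 0.0579% and 0.0593% in the upper tertiles, against 0.0630% and 0.0578% in the lower tertiles, and so did not move one way in both sections. Without the 25% of slow spots richest in these markers 11 genes were called, 8 of them among the 28, with CKMT2, ATP2A2, MYL6, TNNT3 and GAPDH among those. CST3 and CLU then had log2 fold changes of -0.51 and -1.08 and EEF1A1 one of -0.15, and none passed (edgeR adjusted p = 0.34, 0.59 and 0.94). GSN, CD74 and HBB are part of the sum by which these spots were removed, so nothing is read from their values there.

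HBB, the beta chain of haemoglobin from red blood cells (chromosome 9, 4800683 to 4801941), was lower and rested on few spots. It had 1594 and 1031 CPM in the upper tertiles, against 4662 and 2300 CPM in the lower tertiles, a log2 fold change of -1.36 ± 0.07 (SE, edgeR adjusted p = 2.6e-72). The 5 spots richest in it held 60.6% and 37.3% of its UMIs in the upper tertiles, against 84.3% and 50.6% in the lower tertiles, and its median was 1 UMI a spot in the upper tertiles, against 0 and 1 in the lower tertiles. Without the 5% of slow spots richest in HBB, an alternative chosen after seeing the data, HBB had 669 and 729 CPM in the upper tertiles, against 592 and 653 CPM in the lower tertiles, a log2 fold change of 0.16 ± 0.11 (SE, edgeR adjusted p = 0.78). Since spots were removed by HBB itself, this describes the spots that hold its UMIs and is no test of its change. ENSSSCG00000007978, with no symbol, had a log2 fold change of -1.89 ± 0.09 over all slow spots (SE, edgeR adjusted p = 2.0e-87) and -0.08 ± 0.16 without those spots (SE, edgeR adjusted p = 0.97). Blood RNA enters the denominator of the mitochondrial share. Without haemoglobin, here the genes with a haemoglobin symbol, the share of the sums was 22.1% and 21.1% in the upper tertiles, against 17.3% and 16.9% in the lower tertiles. ENSSSCG00000007978 has no symbol and so stayed in that denominator. With tertiles taken anew on that share, the log2 fold change of ENSSSCG00000007978 was -0.69 (edgeR adjusted p = 2.6e-11). It was among the 26 that kept their call, of the 27 called genes tested there, and HBB was left out. In the first division, the 5 spots richest in ENSSSCG00000007978 held 52.8% and 48.5% of its UMIs in the upper tertiles, against 88.0% and 64.5% in the lower tertiles. Whether it comes from red blood cells was not tested, so its kept call is not read as a change outside blood.

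The nuclear genes of oxidative phosphorylation barely followed the mitochondrial share in slow spots. Of 67 tested, 1 was called higher (ATP5PF), beside 0.36% of all genes tested, and none lower, with 4 at an unadjusted p under 0.05. Their log2 fold changes had a median of 0.07 and 50 of 67 were positive, beside 1524 of 3053 over all genes tested. By complex, 25 of 31 genes of complex I were positive, with a median of 0.14 and none called. NDUFB5 and NDUFS3, accessory and core subunits of that complex, had the smallest p values, with log2 fold changes of 0.41 ± 0.15 and 0.32 ± 0.16 (SE, edgeR adjusted p = 0.31 and 0.63). The medians were 0.08 for the 4 genes of complex II, 0.05 for 7 of complex III, 0.05 for 12 of cytochrome c and complex IV and 0.06 for 13 of complex V. ATP5MC1, a subunit of the rotor ring of ATP synthase, just missed the threshold, with 1594 and 1682 CPM in the upper tertiles, against 1460 and 1284 CPM in the lower tertiles, a log2 fold change of 0.28 ± 0.08 (SE, edgeR adjusted p = 0.057). Summed over the list, these genes held 5.95% and 5.69% of non-mitochondrial UMIs in the upper tertiles, against 5.64% and 5.37% in the lower tertiles, and 5.83% and 5.51% in the middle tertiles. The order of the tertiles was the same in both sections. With the 13 genes counted in the library size, the median of the list was -0.007.

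Lists of other pathways were read beside these. Mitochondrial carriers and channels, a list in which the creatine kinase CKMT2 was also placed, had 10 of 11 tested members positive. Its median was 0.20, with CKMT2 and SLC25A3 called. The list of phosphocreatine and adenine nucleotides, which did not hold CKMT2, had none of 6 called, 2 positive and a median of -0.02. Of 22 genes of fatty acid use none was called and 3 had an unadjusted p under 0.05, with a median of 0.13. ACAA2, which completes a turn of beta-oxidation, had 122 and 128 CPM in the upper tertiles, against 61.0 and 68.8 CPM in the lower tertiles, a log2 fold change of 0.93 ± 0.30 that did not pass (SE, edgeR adjusted p = 0.13). Of 18 genes of the tricarboxylic acid cycle none was called and 2 had an unadjusted p under 0.05, with a median of 0.05. PPARGC1A, a coactivator that drives mitochondrial biogenesis, had only 50.3 and 34.2 CPM in the upper tertiles, against 28.2 and 21.2 CPM in the lower tertiles (log2 fold change 0.75 ± 0.52, SE, edgeR adjusted p = 0.76). Its list, mitochondrial transcription and biogenesis, holds 25 genes, of which 4 were tested. These 4 had a median of 0.29, each positive and none called, but only 1 had the same sign in both sections. The slow contractile list had 2 of 19 called higher (ATP2A2 and MYL3), with 16 positive and a median of 0.11. CSRP3 and MYOZ2, a stretch-related LIM protein and a Z-disc protein of slow fibres, stood among its exceptions with log2 fold changes of -0.33 and -0.24 (edgeR adjusted p = 0.075 and 0.30). The fast contractile list had 3 of 16 called lower and a median of -0.12, and glycolysis 1 of 13 and -0.10. The cytosolic ribosome list had 3 of 54, with EEF1A1 among them, and -0.11. Over all genes tested 0.557% were called lower and 0.36% higher. In these 3 lists 5 of 16, 3 of 13 and 10 of 54 were positive. The same sign in both sections held for 10 of 16, 5 of 13 and 41 of 54, beside 1682 of 3053 over all genes tested. Scaled by the number of spots the medians of these 3 lists turned positive, at 0.22, 0.24 and 0.23, against 0.34 for all genes tested.

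The same contrast was read in slow spots that the rule left out, on both sides of its MYH7 range. In 452 nearly pure slow spots (MYH7 share of 0.95 or more), 16 of 2065 genes were called (0.775%). Of the 28 genes, 27 were tested there, 23 had the same sign and 8 were called. Among the 8 were MYL3, MYL6, CST3, HBB, ENSSSCG00000018063 and ENSSSCG00000018061. In 340 less pure slow spots (share of 0.75 to under 0.85), 4 of 1305 genes were called (0.307%): GSN, CST3, ENSSSCG00000018063 and ENSSSCG00000018061. The RNAs without a symbol may come from the mitochondrial genome, whose share made these tertiles too. In less pure spots 27 of the 28 were tested and 25 had the same sign. SAR1B and ENSSSCG00000050649 had the opposite sign, at -0.27 ± 0.34 and 0.09 ± 0.14. Over all genes tested in both, the same sign held for 55.1% in nearly pure and 59.6% in less pure spots. MYL6 had log2 fold changes of -0.78 ± 0.07 in nearly pure spots and -0.60 ± 0.13 in less pure spots (SE, edgeR adjusted p = 1.6e-26 and 0.15). CKMT2 had 0.30 ± 0.09 in nearly pure and 0.52 ± 0.11 in less pure spots (SE, edgeR adjusted p = 0.10 and 0.15), and ATP2A2 had 0.21 ± 0.08 and 0.37 ± 0.11 (adjusted p = 0.25 each). The fast-fibre genes did not repeat in nearly pure spots: TNNI2 stood at 0.21 ± 0.07 and GAPDH at 0.03 ± 0.05 (SE, edgeR adjusted p = 0.18 and 0.96). CLU and ATP5PF also had the opposite sign there, at 0.20 ± 0.41 and -0.12 ± 0.12.

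**Figure D3:**
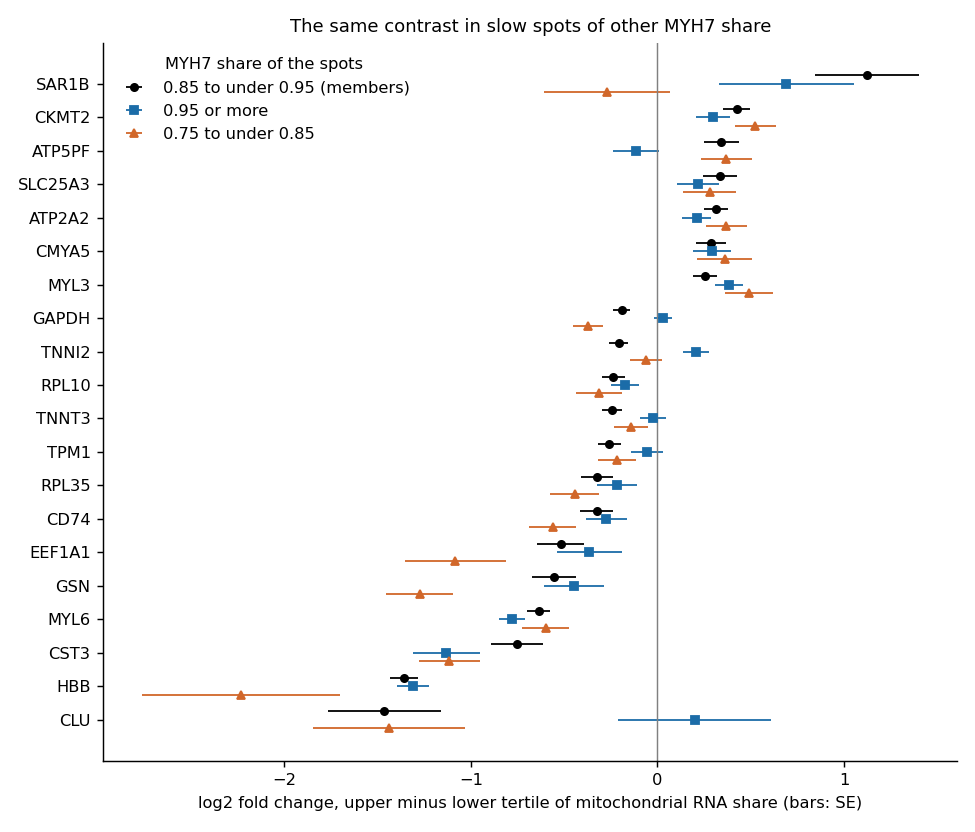
Log2 fold changes of the 20 called genes with a symbol, upper minus lower tertile of mitochondrial share, with SE bars, in the 739 slow spots of the rule (black circles), in nearly pure slow spots (blue squares) and in less pure slow spots (orange triangles); the vertical line marks no change. The genes of energy transfer CKMT2 and SLC25A3 and the light chain MYL3 lie above 0 in the 3 sets, while TNNI2, GAPDH, CLU and ATP5PF fall on the other side of 0 in nearly pure spots.

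Whether slow spots respond differently from fast spots was tested in one fit over 12 sums. Of 3211 genes, 136 (4.24%) changed differently between the tertiles of slow and of fast spots, 94 with a smaller or more negative change in slow spots (2.93%) and 42 with a larger one (1.31%). FHL1, a LIM protein of oxidative fibres, had 10111 and 9895 CPM in the upper tertiles of slow spots, against 9301 and 9311 CPM in their lower tertiles. In fast spots it had 6700 and 6244 CPM in the upper tertiles, against 2042 and 2261 CPM in the lower tertiles, so that the log2 fold changes of 0.10 in slow and 1.57 in fast spots differed by -1.46 ± 0.09 (SE, edgeR adjusted p = 2.1e-60). COX7A1, the muscle isoform of a cytochrome c oxidase subunit, had log2 fold changes of 0.01 in slow and 0.81 in fast spots, and MYL2, the regulatory light chain of slow myosin, 0.00 and 0.71. COQ8A, a kinase-like protein of coenzyme Q synthesis, and the sarcomere proteins ACTN2 and MYBPC1 showed the same order, with differences of -1.62, -1.06 and -0.73. Of the 67 nuclear genes of oxidative phosphorylation 1 was called higher in the upper tertiles of slow spots and 44 in those of fast spots. Over all 3211 genes 0.343% were called higher in slow and 6.23% in fast spots. The medians of the 67 were 0.09 in slow and 0.60 in fast spots, and 21 of them differed, each with the smaller change in slow spots. In the other direction RPLP1, RPS24, TAGLN, MGP, EEF1A1 and TMSB10 were lower in the upper tertiles of fast spots, with log2 fold changes of -2.19 to -0.48, and these differed from the changes of -0.61 to 0.11 in slow spots.

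**Figure D4:**
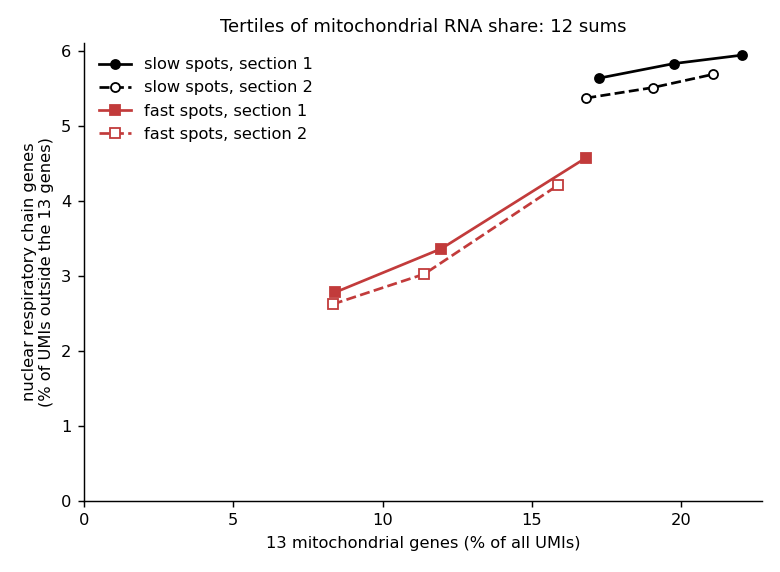
The share of the 13 mitochondrial genes in all UMIs (x axis, percent) against the share of the nuclear respiratory chain genes in non-mitochondrial UMIs (y axis, percent), both axes from 0, for the lower, middle and upper tertiles of slow spots (black) and fast spots (red) in section 1 (filled, solid) and section 2 (open, dashed). The slow lines run from 5.64% to 5.95% and from 5.37% to 5.69%, and the fast lines from 2.78% to 4.58% and from 2.62% to 4.22%.

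Fast spots also spanned a wider range of mitochondrial share. The log2 ratio of the share in the upper to that in the lower tertiles was 0.35 and 0.32 in slow spots, against 1.00 and 0.93 in fast spots, and fast spots of the upper tertiles had a MYH7 share of 0.335 and 0.339 of summed myosin UMIs, against 0.247 and 0.220 in the lower tertiles. In an alternative chosen after the data were seen, fast spots were cut to those of central mitochondrial share (193 and 370 spots), which brought the log2 ratios to 0.35 and 0.34. The ratio alone was matched: the central fast tertiles lay at 10.0% to 13.3% mitochondrial UMIs, against 16.8% to 22.0% in the slow tertiles. Their MYH7 share still moved, at 0.313 and 0.298 in the upper tertiles, against 0.251 and 0.259 in the lower tertiles, while in slow spots it was 0.911 and 0.909 in the upper tertiles, against 0.907 and 0.904 in the lower tertiles. Then 7 of 2469 genes differed, down from 136, and 5 of the 136 kept their call. Of the 67 nuclear genes of oxidative phosphorylation none differed by the edgeR test, 4 had an unadjusted p under 0.05, and their median was 0.09 in slow and 0.21 in central fast spots. Summed over that list, the log2 ratio of upper to lower tertiles was 0.08 in both sections of slow spots, against 0.32 and 0.19 in central fast spots. FHL1 then had a difference of -0.28 ± 0.10 and COX7A1 one of -0.17 ± 0.11 (SE, edgeR adjusted p = 0.48 and 0.96). The tertiles of central fast spots held 64181 to 194885 non-mitochondrial UMIs, against 162826 to 496243 in the upper and lower tertiles of all fast spots, and differences that need more depth were not detectable there. The genes that still differed included MYL2 and TNNT1, the slow troponin T, whose changes of 0.00 and 0.05 in slow spots stood against 0.40 and 0.43 in central fast spots, where the MYH7 share moved too. The part of that shift was not tested. They also included MYL6, which was lower in the upper tertiles of slow spots by 0.62 on the log2 scale, against a change of 0.31 in central fast spots. GSN passed in both fits, but its difference turned, from 0.62 with all fast spots to -1.01 with central fast spots. Its change was -0.54 in slow spots, -1.16 in all fast spots and 0.47 in central fast spots. The last of these did not pass (edgeR adjusted p = 0.12).

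**Figure D5:**
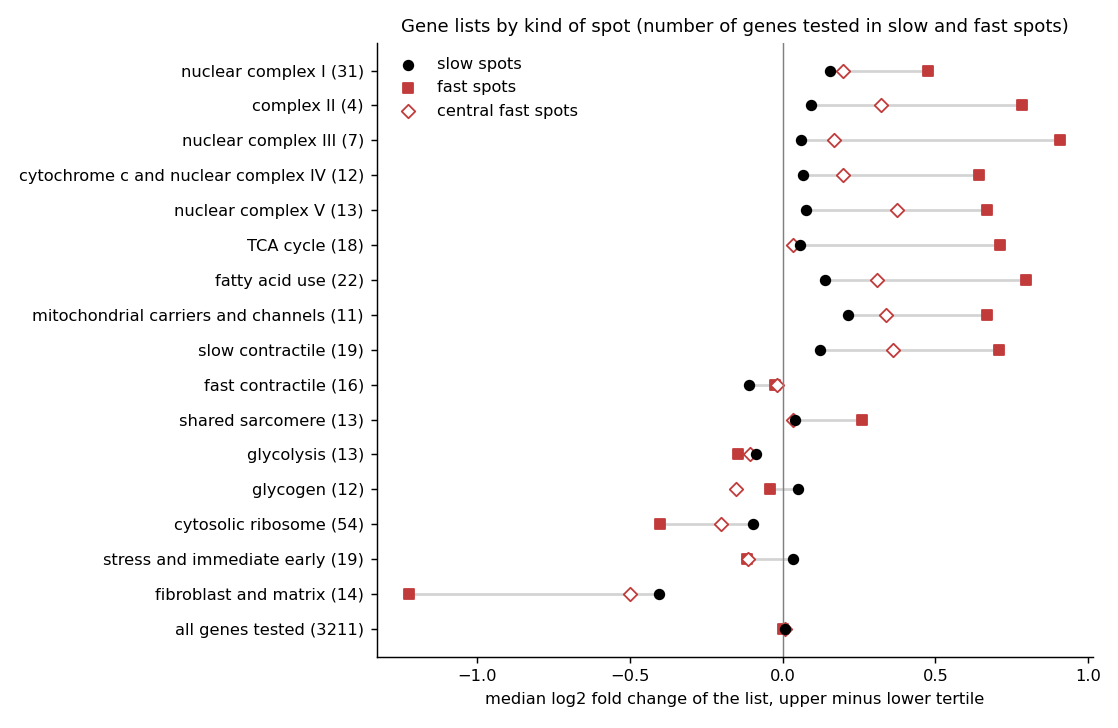
Median log2 fold change, upper minus lower tertile of mitochondrial share (x axis), of 16 gene lists and of all genes tested, in slow spots (black circles), fast spots (red squares) and fast spots of central mitochondrial share (open diamonds); the number of genes tested in slow and fast spots stands in brackets. The respiratory chain lists lie at 0.06 to 0.16 in slow spots and at 0.48 to 0.91 in fast spots, and the central fast spots, matched in the log2 ratio of the share but not in its level, fall between.

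The genes called in slow spots were also followed in fast spots. In the fit over both kinds 27 of 3211 genes were called in slow spots (0.841%), 11 higher (0.343%) and 16 lower (0.498%) in the upper tertiles. Of these 11 genes, 10 were also called higher in fast spots, where 200 of 3211 genes were (6.23%). Among the 10 were ENSSSCG00000018063, ENSSSCG00000018061 and ENSSSCG00000018067, which may come from the mitochondrial genome whose share made the tertiles. SAR1B was the exception: it had 163 and 182 CPM in the upper tertiles of fast spots, against 299 and 221 CPM in the lower tertiles, and its change in slow spots minus that in fast spots was 1.65 ± 0.35 (SE, edgeR adjusted p = 0.00015). Of the 16 lower genes, 8 were also lower in fast spots, where 234 of 3211 genes were (7.29%), and 1 was higher: ENSSSCG00000050649, with a log2 fold change of 1.099 in fast spots. MYL6 had 1019 and 1167 CPM in the upper tertiles of fast spots, against 1151 and 1052 CPM in the lower tertiles, and its change in slow spots minus that in fast spots was -0.65 ± 0.12 (SE, edgeR adjusted p = 3.5e-06). Over single spots, Spearman's rho between the mitochondrial share and the share of nuclear respiratory chain genes was 0.25 and 0.23 in slow spots, against 0.68 and 0.67 in fast spots, described here without a test because spots share a library and differ in depth and in range.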

How the data were processed

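RNA of 2 cryosections of psoas major was measured with 10x Visium. The deposited files hold raw UMI counts, not normalized, for every gene in every spot. The authors obtained them from Space Ranger 1.1 with a Sscrofa11.1 reference of their own, which left out the Y chromosome and took MYH2 and MYH4 from an older annotation; the labels and the methods name different annotation releases. Porcine carrier RNA was added to the libraries, and neither the labels nor the methods say how its reads were treated. MYH1 was not analysed here. The study also removed spots by hand; which ones was not used here, so slow spots may include some of them. Its cuts on mitochondrial share, UMIs and genes were an alternative, and they removed 2 slow spots in each section. Of 31780 genes 16694 had a symbol in the files and 796 were named from a reference table by identifier; coordinates are those of RefSeq for Sscrofa11.1.

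UMIs were summed per section and tertile, since spots are not replicates. For the 6 sums, R 4.3.3 with edgeR 4.0.16 was used (TMM, filterByExpr with a minimum count of 10, quasi-likelihood test, Benjamini-Hochberg adjustment, threshold 0.05) blocking on section, since tertiles of 1 section share a pig and a library. The 13 mitochondrial genes were left out of tests and library size, and the 3 myosins out of tests. RNAs without a symbol whose identifiers adjoin those of the 13 genes stayed in tests and library size. With 2 residual degrees of freedom, 1 spread was shared by all genes, so that p-values, which cover only the spread between these sums, rest on that sharing. On simulated counts for the slow comparison (2846 genes), the test recovered 10.5% of genes changed 1.5-fold and 44.9% of those changed 2-fold. Among genes with a mean of at least 100 UMIs these were 46.2% and 100%. The simulated counts had 1 spread for all genes and no difference between sections, so real genes may be recovered less often. Fast spots, nearly pure and less pure slow spots were treated alike, and slow and fast spots were compared in 1 fit of 12 sums. The spots, lists and tests were chosen with earlier results of these data known. Named genes were those passing with the largest changes in each direction (up to 10, at least 50 CPM, a symbol, the same sign in both sections) and up to 4 members a list with the smallest p, and for slow against fast spots the 6 with the smallest p in each direction; the RNAs without a symbol and TNNT1 fall outside that rule and were picked after their values were seen. Alternatives covered normalization, DESeq2 1.42.0, filters, division, depth, myosin share, scaling, blood and other cells. Some withheld items are not reported here.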

Additional observations from a re-analysis of the deposited data

Results flagged for a closer look

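The results here are those in which the change between tertiles of mitochondrial share differed between slow and fast spots by the edgeR interaction test. In all, 94 genes had a smaller or more negative change in slow spots and 42 a larger one. The 6 with the smallest p in the first direction differed by -1.46 (FHL1), -1.62 (COQ8A), -1.06 (ACTN2), -0.71 (MYL2), -0.79 (COX7A1) and -0.73 (MYBPC1) on the log2 scale. The 6 in the other direction differed by 0.44 (RPLP1), 0.71 (RPS24), 1.57 (TAGLN), 1.57 (MGP), 0.83 (EEF1A1) and 0.72 (TMSB10). Each of the 12 had the same sign of difference in both sections. With fast spots cut so that the log2 ratio of mitochondrial share between tertiles was like that of slow spots, though not its level, MYL2 alone of the 12 still passed, and the difference of EEF1A1 was -0.17 (edgeR adjusted p = 0.97). Fast spots of high mitochondrial share also held more MYH7 and fewer UMIs of markers of other cells, and the part of either in these differences was not tested. With 2 sections, no single sample could be set against the others of its group.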

How the results depend on the processing

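Of 495 values of the 28 called genes under other settings, 363 kept their direction and their side of the threshold, 121 lost the call, 1 moved and 10 turned. The 28 genes called (11 higher, 17 lower) became 10 (4 and 6) with DESeq2, which gave an adjusted p to 212 genes and to 21 of the 28, 10 (4 and 6) without the filter on low counts, 12 (5 and 7) within bins of depth, 11 (4 and 7) without spots rich in markers of other cells, 345 (339 and 6) scaled by the number of spots and 58 (6 and 52) with the 13 genes in the library size; a division into 2 equal groups gave 4 higher genes. With no replicate block the count was 13 (5 and 8). The cause was not tested for these, apart from more genes entering the adjustment without the filter (12419). Scaled by the number of spots, the log2 fold changes turned to 0.0112 for CD74, 0.0136 for RPL35, 0.0825 for TPM1, 0.10 for TNNT3, 0.15 for GAPDH, 0.14 for TNNI2 and 0.10 for RPL10. HBB turned to 0.24 without spots rich in markers of other cells and to 0.16 without those richest in HBB, and ENSSSCG00000007978 to 0.11 in the first case. The other settings (RLE factors, filters of the study, bins of myosin share, 20 myosin UMIs, 2 tertiles only, haemoglobin left out) gave 23 to 35 calls, and those chosen after seeing the data (haemoglobin out of the mitochondrial share, no spots richest in HBB) gave 33 and 30.

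For the difference between slow and fast spots, 42 larger and 94 smaller changes became 12 and 53 with DESeq2, 19 and 39 with fast spots of a MYH7 share up to 0.3, and 0 and 7 with central fast spots. There EEF1A1 turned to -0.17 and GSN to -1.01. Counts could not be tested without a section. The Spearman correlation between the mitochondrial share and nuclear respiratory genes in slow spots was 0.23 to 0.25 with either section left out. Genes under about 100 UMIs a sum limit what could be called.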

Other observations

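Further lists were read in the same way. Of 17 tested genes of the stress and immediate early response none was called and 2 had an unadjusted p under 0.05, with a median log2 fold change of 0.02. DNAJA1 and HSPH1, co-chaperones of the heat shock response, had log2 fold changes of -0.73 ± 0.24 and -0.72 ± 0.28 (SE, edgeR adjusted p = 0.14 and 0.38). Of 15 genes of atrophy and proteolysis none was called and 1 had an unadjusted p under 0.05, with a median of -0.11. Of 14 antioxidant genes none was called, and PRDX3 and PRDX6, a mitochondrial and a cytosolic peroxiredoxin, had opposite signs, at 0.44 ± 0.20 and -1.04 ± 0.42 (SE, edgeR adjusted p = 0.53 and 0.41). CA3, the abundant carbonic anhydrase of slow fibres, had 8527 and 8388 CPM in the upper tertiles, against 8183 and 8646 CPM in the lower tertiles, a log2 fold change of 0.00 ± 0.05 (SE, edgeR adjusted p = 1.00).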
